A study of Drosophila melanogaster with 3 samples.

Results

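Of the 30000 regions that the authors listed for acj6-GFP from their pooled alignments, 852 (2.84%) had their summit, the base of highest signal, more than 500 bp from every protein-coding transcription start site (TSS) and inside a coding exon or 3' UTR. The summit lay in a coding exon in 264 of them and in a 3' UTR in 588, and all 852 were kept with no filter on strength. ChIP-seq, the sequencing of DNA pulled down with a protein, was done on a stably transgenic Drosophila melanogaster strain, acj6-GFP, whose acj6 protein carries eGFP at its C-terminus, and the chromatin was pulled down through the tag with an antibody against GFP, per the sample descriptions (the antibody field of the labels names acj6). There was 1 group, whole white prepupae of pooled males and females, with 3 biological replicates and no untagged or untreated group among the samples. The labels state neither the driver of the tagged gene nor whether the animals kept their own acj6, and chromatin of a whole animal mixes cells with and without the protein.

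Acj6 is a class IV POU-homeodomain factor. Proteins of this family hold DNA with 2 joined domains, a POU-specific domain that reads octamer-like letters and a homeodomain that reads AT-rich letters, and in flies acj6 is best known for choosing odorant receptor genes and partners in olfactory neurons. Coding exons are the GC-rich, translated part of a gene, and 3' UTRs are the AT-rich transcribed stretch after the stop codon, where poly(A) signals and sites for RNA-binding proteins and miRNAs lie. A ChIP region in an exon is a statement about DNA at that place, and says nothing of the RNA made from it.

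The sequences under the strongest coding-exon regions show how unlike each other these places were. Each line gives 30 bases around the summit on the strand of the gene, 5′ to 3′, for 6 of the 7 coding-exon regions with the highest pooled signal, in dm6 coordinates, and the capitals mark the codon that holds the summit base.
CG5895 (chr3L:16037126-16037155, plus strand): cgattatgtaaatTTGgaaatatttaattt
klar (chr3L:506255-506284, minus strand): ctgcacagcagcGCCaccttgggtctgggt
Ubr1 (chrX:16967608-16967637, minus strand): gccccctgccgagTGCagttcgccgctcaa
bif (chrX:11681744-11681773, plus strand): agcactagtcaaaagAGAaacatgatcggt
Pde1c (chr2L:11816567-11816596, minus strand): gagccagctgcgGAGccggcagatggcgct
CG3919 (chr3L:14411144-14411173, plus strand): tcaatgccaaaataTGTcatttggtgaaac
The GC content of these windows was 16.7% in CG5895, 33.3% in CG3919, 40.0% in bif, 66.7% in klar, 70.0% in Ubr1 and 73.3% in Pde1c. The summit codon was number 447 of CG5895, 208 of klar, 17 of Ubr1, 102 of bif, 1166 of Pde1c and 22 of CG3919, counted from the start codon of a transcript that holds the summit.

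In 3' UTRs the letters that a POU-homeodomain protein could read were found in 9 of the 77 regions that overlapped the list of reproducible peaks. TAATTA was in 8 of the 77 (10.4%), against 17.7% of the other regions that overlapped that list, and the sequences are shown to let the matches be seen, not as more frequent than elsewhere. The lines give 30 bases on the strand of the gene around a match within 100 bp of the summit, with the match in capitals: TAATTA, the homeodomain core, in 5 of them, and the octamer ATGCAAAT, which reads ATTTGCAT on the gene's strand, in CG13284.
Cals (chr4:1113364-1113393, minus strand): aacgatgccttgTAATTAgaaattaataga
CG14440 (chrX:6696654-6696683, minus strand): taaatattaaaaTAATTActgagcatcgcg
zormin (chr3L:2117480-2117509, minus strand): cattaataatacTAATTAaaaagacaagtg
jigr1 (chr3R:25651824-25651853, plus strand): tgtctggccctgTAATTAtataatttaatc
CG34276 (chr3R:15927447-15927476, plus strand): atatttttatgtTAATTAaacattttgccc
CG13284 (chr2L:16842634-16842663, minus strand): gtaatattattATTTGCATtgaaaatgtct
The match stood 47 bp from the summit in Cals, 20 in CG14440, 22 in zormin, 26 in jigr1, 26 in CG34276 and 79 in CG13284. The jigr1 line is not from that gene's strongest region, which had pooled rank 4611 and a match 69 bp from its summit. That match and the one in CG3842 are not shown. These are matches of letters, and how often such letters occur in windows away from the summits is given with the motif counts.

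The exonic regions were mostly weak. The authors' signal value, which is comparable only within a list, had a median of 30.9 over the coding-exon regions and 35.3 over the 3' UTR regions, against 49.8 over the 29148 other regions. On ranks (1 is the strongest of 30000) the medians were 23613.5 for coding exons and 20532 for 3' UTRs, against 14793.5 for the others. The strongest exonic region ranked 112 and the weakest 29984, so they spanned nearly the whole list. Per megabase of sequence open to the rule, coding exons held 13.99 regions and 3' UTRs 96.6, against 268.9 in introns, 217.3 outside protein-coding genes and 395.4 within 500 bp of a TSS.

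The share of exonic summits was higher at the weak end than at the strong end of every replicate's list. Coding exons held 0.0667%, 0.1% and 0.1% of the strongest 3000 regions of replicates 1, 2 and 3, against 4.17%, 5.17% and 2.77% of their weakest 3000. 3' UTRs held 0.5%, 0.567% and 0.5% of the strongest 3000, against 3.33%, 4.07% and 4.7% of the weakest. Over lists cut into 4 equal parts by signal, both classes together made up 0.84%, 0.88% and 0.907% of the strongest part of replicates 1, 2 and 3, against 7.23%, 7.95% and 7.04% of the weakest part, a difference of -6.53 ± 0.483 percentage points (SD, n = 3). It had the same sign in all 3 replicates, and the exact two-sided sign-flip permutation test gave p = 0.25, the smallest that 3 replicates allow here and in every other test of this kind below. Applied to each replicate's own list, the rule found 448, 524 and 324 coding-exon regions and 664, 657 and 811 3' UTR regions in replicates 1, 2 and 3, so that replicate 3 had the fewest of the first kind and the most of the second.

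**Figure D1:**
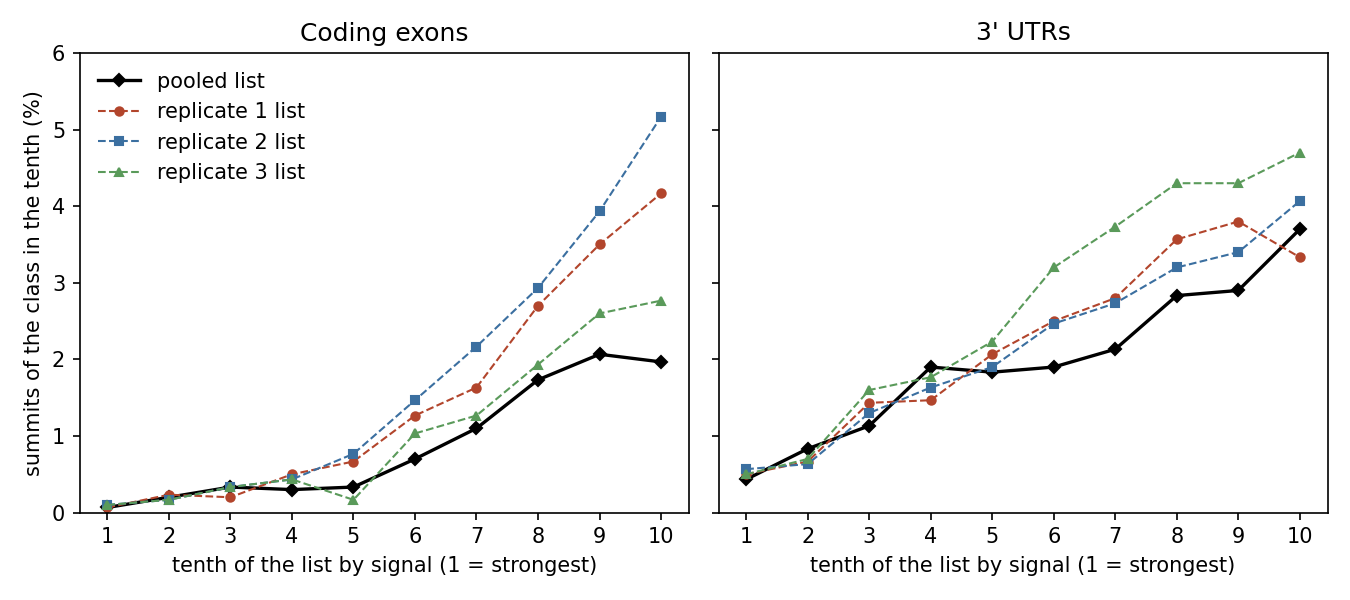
Share of summits in coding exons (left) and in 3' UTRs (right), in percent, in each of 10 equal parts of a list by signal, for the pooled list and the 3 replicate lists of 30000 regions each. All 4 lists lie under 0.6% for either class at the strong end and between 1.9% and 5.2% at the weak end.

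The list of reproducible peaks is made by the irreproducible discovery rate (IDR) procedure, which keeps peaks that replicates rank alike. All 8248 IDR peaks had the summit base and the signal of a pooled region, and they were the 8248 strongest regions of the pooled list, so that membership in it and pooled rank are the same information. Of the 852 exonic regions, 95 (11.2%, exact binomial 95% interval 9.12% to 13.5%, counting error only) overlapped an IDR peak by 1 bp or more, against 9401 (32.3%) of the other regions, and the share over all 30000 was 31.7%. Coding exons stood at 18 (6.82%) and 3' UTRs at 77 (13.1%). Of the 95, 75 were themselves IDR peaks (14 in coding exons and 61 in 3' UTRs), and the remaining 20 were weaker than every IDR peak and overlapped a stronger neighbour.

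Few exonic regions were strong in every replicate. A region counted as strong in a replicate where a single region among that replicate's 8248 strongest spanned at least 50% of it, and over all 30000 regions this share was 27.5% in replicate 1, 28.0% in replicate 2 and 28.4% in replicate 3. Of the exonic regions 10.2%, 9.16% and 11.3% were strong in replicates 1, 2 and 3, against 28.0%, 28.5% and 28.9% of the other regions, a difference of -18.2 ± 0.964 percentage points (SD, n = 3; the exact sign-flip permutation p was at its smallest). By class, the shares averaged 5.18% ± 0.953 in coding exons and 12.5% ± 1.11 in 3' UTRs, against 18.8% ± 3.01 in 5' UTRs, 27.0% ± 0.563 in introns and 22.3% ± 0.874 outside protein-coding genes (SD, n = 3 each). In all 3 replicates 49 exonic regions were strong (7 in coding exons and 42 in 3' UTRs), which is 5.75% of them (exact binomial 95% interval 4.29% to 7.53%), against 20.3% of the others and 19.9% of all 30000, and 721 were strong in none. Taking the rank of the nearest summit within 200 bp in place of coverage, 47 exonic regions (5.52%) were among the 8248 strongest of all 3 replicates, against 20.2% of all 30000. The measures differ for single regions: those of CG43389 in replicate 1 (rank 129) and otp in replicate 2 (rank 1223) were under 50% covered, and that of CG4004 was covered in replicate 2 at rank 8495. Because the pooled list was made from the same reads, these shares describe the lists and are no independent test of them.

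**Figure D2:**
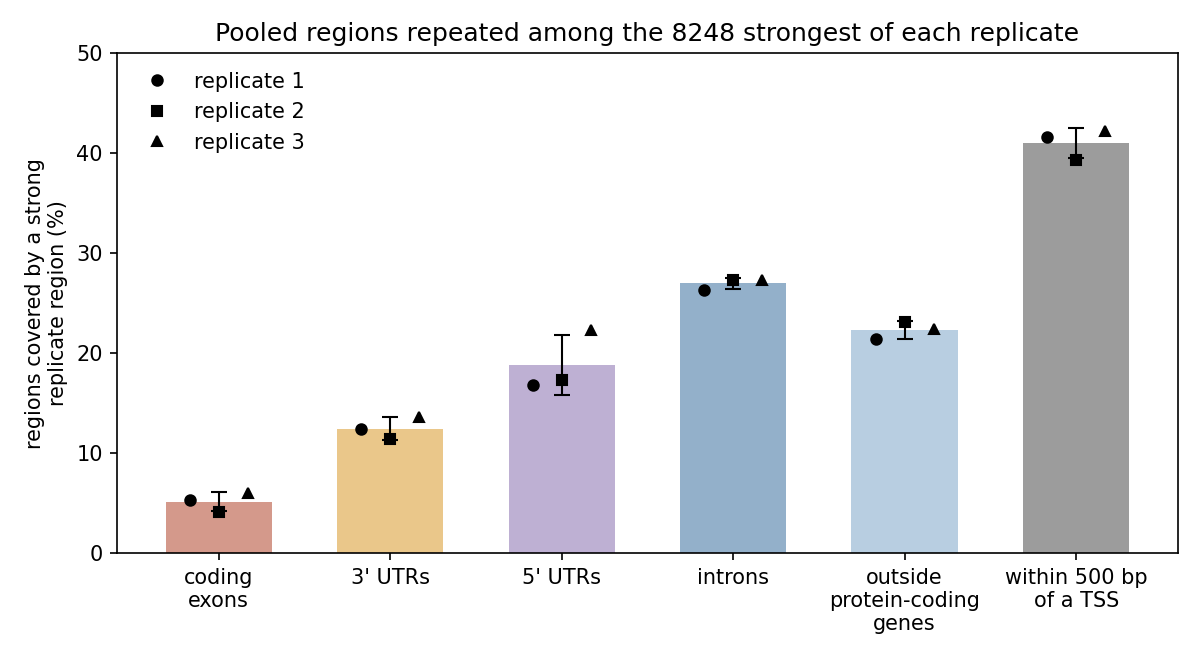
Share of pooled regions, in percent, of which at least 50% was covered by 1 of the 8248 strongest regions of a replicate, by the feature at the summit. Bars are means over the 3 replicates, error bars are SD (n = 3) and symbols are single replicates, and coding exons (5.18%) and 3' UTRs (12.5%) lie below all other classes in each replicate.

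Exonic summits less often had a replicate summit nearby. These regions were also mostly weaker than the others, and regions of equal rank were not compared. A replicate summit within 200 bp was found for 60.1%, 56.7% and 61.9% of them in replicates 1, 2 and 3, against 74.95%, 74.98% and 76.4% of the other regions, and 65 exonic regions had none in any replicate while 241 had one in all 3. Where there was one, it lay in the same kind of feature in 89.7%, 87.6% and 90.5% of exonic regions, against 98.8%, 98.9% and 99.1% of the others, for which any place outside these exons counted (difference -9.69 ± 1.42 percentage points, SD, n = 3, again in 3 of 3 replicates). It lay in either kind of exon in 90.4%, 88.2% and 91.3% of exonic regions. Exons open to the rule span 24.96 Mb and all other sequence 108.9 Mb. The 2 shares thus have unlike targets, and their difference does not measure how far summits moved. Coding exons kept their class in 79.4% ± 4.05 and 3' UTRs in 93.0% ± 1.43 of cases (SD, n = 3). The coding-exon summits that moved went mostly to introns (14.8% ± 2.29 of cases), and those of 3' UTRs to sequence outside protein-coding genes (4.28% ± 1.43). Over all regions with such a summit, the median distance to it was 30, 30 and 13 bp for coding exons in replicates 1, 2 and 3, against 26, 27 and 16 bp for the other regions, and the difference of 1.33 ± 3.79 bp was within the spread between replicates. For 3' UTRs it was 28, 29 and 19 bp, a difference of 2.33 ± 0.577 bp from the other regions with the same sign in all 3 replicates.

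Among coding exons, orthopedia (otp, FBgn0015524), which encodes a homeodomain transcription factor, had the strongest region. Its signal was 541, and its nearest summits ranked 509, 1223 and 892 in replicates 1, 2 and 3. The region (chr2R:20884467-20884706, summit 20884591, minus strand) lay wholly in the last coding exon, was exonic in all 9 transcripts that span it, and was 4661 bp from the nearest protein-coding TSS and 188550 bp from the nearest stronger region. Its 201 bp at the summit were 56.7% GC, against 27.6% in windows 1 kb away.

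The next coding-exon regions were weaker and close to each other in signal. CG5895 (FBgn0036560) had a signal of 245 and ranks of 3039, 2915 and 2823 in replicates 1, 2 and 3, with the summit 18 bp from the end of its last coding segment. In klar (FBgn0001316), which encodes a KASH-family protein of nuclear and lipid droplet transport, the signal was 233 and the ranks were 3807, 3229 and 3424. Ubr1 (FBgn0030809), the ubiquitin ligase of the N-end rule, had a signal of 215 and ranks of 2900, 2867 and 4534. All 3 were among the 8248 strongest of each replicate, as was bif (FBgn0014133), which encodes a cytoskeletal protein of developing photoreceptors, at ranks 3245, 3330 and 4654. The bif summit lay 41 bp inside an exon of 2537 bp, and in replicate 2 the nearest summit fell in an intron.

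Further coding-exon regions of the IDR list had lower ranks, and some fell past 8248 in a replicate. Pde1c (FBgn0264815), a calcium-dependent cyclic nucleotide phosphodiesterase gene, ranked 5418, 5718 and 2994 in replicates 1, 2 and 3, and CG3919 ranked 4922, 5664 and 4411. CG10962, which lies within the span of rdgA, ranked 5992, 10285 and 4379. The low-density lipoprotein receptor relative LRP1 ranked 6025, 8350 and 5761, with an intronic summit in 2 of 3 replicates. In sgg (FBgn0003371), the fly GSK3 kinase gene, ranks were 8776, 6374 and 6351, and the summit was coding in only 3 of the 17 transcripts that span it. The sorting nexin gene Snx27 ranked 6314, 6313 and 9900. Of the 14 coding-exon regions in the IDR list, 8 had their nearest summit among the 8248 strongest of all 3 replicates and 11 had it in a coding exon each time, with bip1, CG6678 and CG1632 the 3 genes of the list not described above.

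In 3' UTRs the strongest regions reached far higher. CG43389 (FBgn0263246, chr3L:3248658-3249126, summit 3248910) had a signal of 1167 and ranked 129, 173 and 85 in replicates 1, 2 and 3. Its 3' UTR segment is 234 bp long and 30.7% of the region was coding sequence. The nearest protein-coding TSS was 895 bp away and the nearest start of a non-coding gene 430 bp away. Ance-3 (FBgn0032536), a relative of angiotensin-converting enzyme, followed at a signal of 824 with ranks of 252, 365 and 351. Cals (FBgn0039928), the calsyntenin of synapses on the small chromosome arm 4, had a signal of 802 and ranks of 273, 410 and 409, and no stronger region lay on that arm.

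The 3' UTR regions of NetB and by were of similar strength. NetB (FBgn0015774), a netrin that guides axons, had a signal of 456 and ranks of 1004, 1178 and 1285, with the summit 3246 bp before the end of a 3' UTR segment of 5224 bp, 9716 bp from the nearest protein-coding TSS. The tensin gene by (FBgn0000244), whose product links integrins to actin, had a signal of 505 and ranks of 850, 1155 and 889. CG7872 (signal 689, ranks 538, 540 and 455) and CG33307 (signal 617, ranks 561, 725 and 589) lay as high, the second within the span of CenG1A. All of these ranks are in the strongest 3000 of every replicate, and in all 3 replicates the nearest summit was in a 3' UTR.

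Lsd-2 (FBgn0030608), a perilipin that coats lipid droplets, had 4 regions in its 3' UTR segments, 3 of them overlapping the IDR list, with a best signal of 306 and ranks of 1811, 1760 and 2927 for that region in replicates 1, 2 and 3. REG, the PA28 gamma activator of the proteasome, ranked 2512, 2597 and 2886, and the growth regulator Tctp ranked 4524, 2533 and 2570. The gene stas ranked 868, 1674 and 1150, CG14440 ranked 1664, 1640 and 1575, and CG9107 ranked 2222, 2010 and 1609. CG4004 was the least even, at 3662, 8495 and 2176. Of the 14 strongest 3' UTR regions, 13 had the nearest summit among the 8248 strongest of all 3 replicates, CG4004 being the exception, and all 14 had it in a 3' UTR each time.

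**Figure D3:**
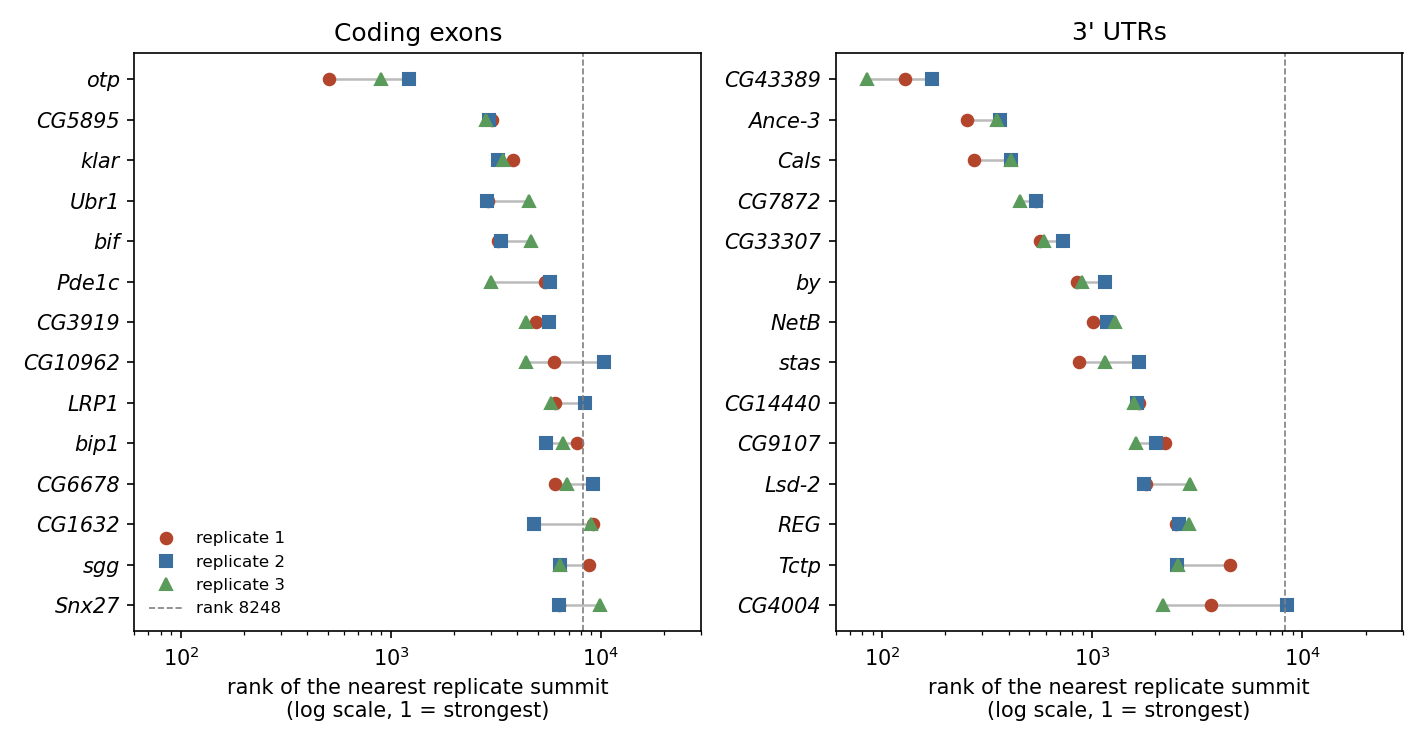
Rank of the nearest summit within 200 bp in each replicate (log axis, 1 is the strongest of 30000) for the 14 strongest coding-exon regions (left) and the 14 strongest 3' UTR regions (right) that overlap the IDR list, named by host gene in order of pooled signal. The dashed line is rank 8248, which 6 of the coding-exon regions and 1 of the 3' UTR regions cross in at least 1 replicate.

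Just outside the IDR list the ranks lay on both sides of 8248. The strongest such coding-exon regions were in CG4080 (signal 93.7, ranks 8111, 10919 and 7716), Tim17b1, a mitochondrial import gene (92.3, ranks 21313, 8922 and 8086), CG11668 (90.7, ranks 9121, 7807 and 9294) and the tropomyosin gene Tm1 (86.0, ranks 10400, 8487 and 13001). The strongest such 3' UTR regions were in Lk6, a kinase of the Mnk family (93.5), CG11309 (93.5, ranks 11165, 12667 and 9912), the mismatch repair gene spel1 (93.3, ranks 4530, 6964 and 8950) and the mitochondrial protease gene HtrA2 (91.5, ranks 7982, 9994 and 8150). Lk6 ranked 11105 in replicate 1 and 10769 in replicate 3, and had no summit within 200 bp in replicate 2. At the median strength of each class, in coding exons Nubp2 (31.0) ranked 26339 in replicate 1 and 15365 in replicate 3, and in 3' UTRs I-t (35.3) ranked 25954 in replicate 2 and 20826 in replicate 3, and each lacked a summit in the remaining replicate.

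Coding-exon summits lay near exon edges and in short exons. The median coding exon at a summit was 307 bp long (range 26 to 7166), and the median distance from the summit to its edge was 59 bp. In 160 of 264 (60.6%) the exon was shorter than 420 bp, the commonest width of a pooled region, and 43.6% of summits lay within 50 bp of an edge. Over all coding bases open to the rule the shares were 28.3% and 21.2%. Coding exons and 3' UTRs together held a median of 69.9% of the region (59 regions were under 50% exonic by this count and 41 wholly exonic). Most of these regions thus also covered other sequence, and its kind, intron or other, was not counted. By place in the coding sequence, 60 summits were in the first coding exon, 125 in an internal one, 62 in the last and 17 in a gene with a single one. In 225 of 264 every transcript of the gene that spans the summit had it in coding sequence.

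3' UTR regions were of another shape. The median segment was 1497.5 bp long (range 48 to 18494), the median summit lay 300.5 bp from an edge, and 365 of 588 (62.1%) regions were wholly exonic. Segments of 1 kb or more held 62.6% of the summits, against 57.5% of the 3' UTR bases open to the rule. With each segment cut into 4 equal parts from its 5′ to its 3′ end, the parts held 86, 142, 155 and 205 summits, so the last held the most, and the median summit was 458 bp from the 3′ end of the segment. Among the 77 that overlapped the IDR list the parts held 7, 21, 18 and 31. Coding-exon summits too lay most often in the last part, at 65, 56, 55 and 88 for the 4 parts. The bases open to the rule were not counted by part, and the 500 bp limit need not take equally from each. These counts thus cannot tell a lean of the summits from an effect of the rule.

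**Figure D4:**
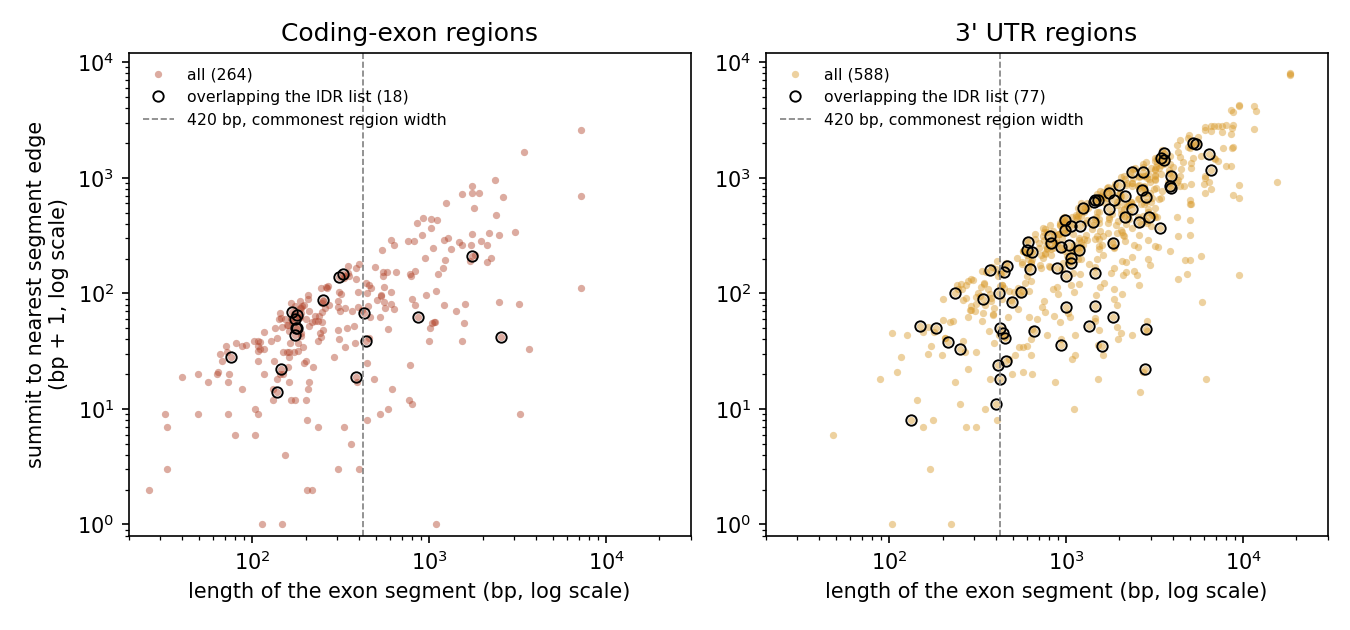
Length of the exon segment at the summit (horizontal, bp) against the distance from the summit to the nearest edge of that segment (vertical, bp plus 1), both on log axes, for the 264 coding-exon regions (left) and the 588 3' UTR regions (right). Open circles overlap the IDR list (18 and 77), the dashed line marks 420 bp, and the coding-exon points crowd to the left of it, with a median of 307 bp, against 1497.5 bp in 3' UTRs.

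Base composition at the summits differed in sign between the 2 kinds of exon. In each replicate's own list the 201 bp at coding-exon summits were 49.4%, 48.5% and 47.5% GC in replicates 1, 2 and 3, against 42.0%, 42.1% and 41.7% in windows 1 kb to each side, a difference of 6.53 ± 0.816 percentage points (SD, n = 3). 3' UTR summits were 35.3%, 34.6% and 33.8% GC, against 41.7%, 41.2% and 41.4% in the flanks, a difference of -6.86 ± 0.607 points. At the other regions the difference was -4.59 ± 0.499 points. The 3' UTR value was below that of the other regions in all 3 replicates, by -2.27 ± 0.209 points, and the coding-exon value was above it in all 3, by 11.1 ± 0.323 points, each with the exact permutation p of 0.25.

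The features themselves differ in composition. All coding bases open to the rule were 53.4% GC and all 3' UTR bases 35.2%. Within 100 bp of the summit, the coding bases were 52.8%, 51.5% and 51.3% GC in replicates 1, 2 and 3, all below the 53.4% of all coding bases (difference -1.59 ± 0.844 points, SD, n = 3), and the 3' UTR bases were 35.1%, 34.3% and 33.7%, below the 35.2% of all 3' UTR bases by -0.906 ± 0.705 points. In the pooled list the coding bases were 51.3% GC over all 264 regions and 56.8% over the 18 that overlapped the IDR list, which is above the 53.4% of all coding bases. The 3' UTR bases were 34.7% GC over all 588 regions and 36.1% over the 77, above the 35.2% of all 3' UTR bases. Of the 264 coding-exon regions 69 (26.1%) had less GC at the summit than in the flanks, against 431 of 588 (73.3%) in 3' UTRs.

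**Figure D5:**
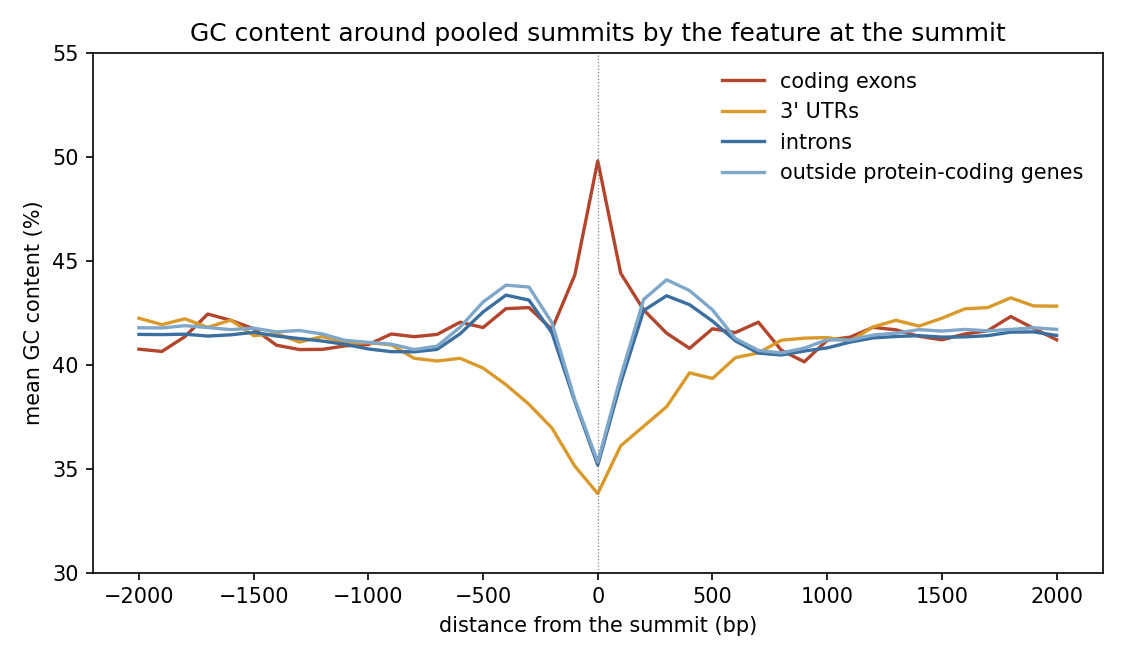
Mean GC content in percent against the distance from the pooled summit in bp, by the feature at the summit. Coding exons peak at 49.8% at the summit, while 3' UTRs fall to 33.8% in a broad dip, against 35.2% in introns and 35.3% outside protein-coding genes, where the dip is narrow.

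Over all 852 exonic summits of the pooled list, POU and homeodomain letters were found at shares near those of the whole list. The share of TAATTA was lower in coding exons and in the exonic regions that overlapped the IDR list. Windows of 201 bp at the summit were searched on both strands for 12 short motifs, some of which overlap each other in their letters. The octamer ATGCAAAT was in 31 of 852 windows (3.64%), against 3.54% of the windows at other regions and 3.54% over all 30000. TAATTA, the homeodomain core, was in 24 of 264 coding-exon windows (9.09%) and in 108 of 588 3' UTR windows (18.4%), against 16.8% at other regions and over all 30000. The class IV POU site ATTAATGAG was in 2 windows (0.235%, against 0.29% over all 30000), both in 3' UTRs. The palindromic site ATAATTAAT, whose letters contain TAATTA, was in 13 (1.53%, against 1.56% over all 30000), 2 of them in coding exons (0.758%). Of the 95 exonic regions overlapping the IDR list 9 held TAATTA (9.47%; 8 of the 77 in 3' UTRs, 10.4%), against 1665 of the 9401 other regions that overlapped it (17.7%). The octamer was in 3 of the 95 (3.16%), against 296 of the 9401 (3.15%). None of the 95 held either of the other sites, which were rare in the 9401 too: ATTAATGAG was in 32 (0.340%) and ATAATTAAT in 164 (1.74%).

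Against windows 1 kb away, TAATTA moved with the composition of the exon. In the replicates' own lists it was in 17.4% ± 0.919 of 3' UTR summit windows, against 12.8% ± 0.721 of their flanks, a difference of 4.64 ± 0.619 percentage points, and in 5.88% ± 0.453 of coding-exon windows, against 10.6% ± 0.201 of their flanks, a difference of -4.72 ± 0.483 points (SD, n = 3). At the other regions the difference was 2.73 ± 0.444 points. The A run AAAAAAAA went the same way, with 7.62 ± 0.519 points in 3' UTRs, -5.56 ± 1.87 in coding exons and 4.97 ± 0.197 elsewhere, and AATAAA, the poly(A) signal, with 16.3 ± 3.42, -14.4 ± 1.52 and 10.1 ± 1.03 points. CAGCAGCAG, which in frame codes for runs of a single amino acid, was the reverse: it was in 6.69% ± 0.784 of coding-exon windows, against 2.42% ± 0.179 of their flanks. GC content moves with each of these differences, and its part was not tested. The octamer ATGCAAAT was in 2.20% ± 0.281 of coding-exon windows, against 3.32% ± 0.599 of their flanks. In 3' UTRs it was in 3.44% ± 0.291, against 2.66% ± 0.152 of the flanks. Each difference had the same sign in all 3 replicates, and at the other regions it was -0.24 ± 0.156 points. In the pooled list coding exons went the other way, with the octamer in 10 of 264 windows (3.79%), against 3.41% of their flanks. In 3' UTRs of the pooled list it was in 3.57%, against 2.30% of the flanks. Letters known from promoters were scarce: the DRE TATCGATA was in 3 of the 852 windows (0.352%) and GGTCACAC, the core of the M1BP motif, in 1 (0.117%), against 1.30% and 0.865% at other regions, and over all 30000 windows they were in 1.28% and 0.843%. Both reference sets include the 6062 regions within 500 bp of a TSS, which the rule keeps out of the exonic set. The comparison is therefore unequal by design, and introns alone were not compared. The E-box CAGCTG was in 35 of 264 coding-exon windows (13.3%) and 29 of 588 3' UTR windows (4.93%), against 6.88% at other regions and 6.89% over all 30000. GAGAGAG was in 23 of the 852 windows (2.70%) and the CA repeat CACACACA in 47 (5.52%), 44 of them in 3' UTRs, against 2.99% and 4.03% at other regions and 2.98% and 4.07% over all 30000.

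The exonic regions lay in 703 of the 13945 protein-coding genes (5.04%), and 85 genes held 1 that overlapped the IDR list. Most genes, 581, had a single region, and none had it in acj6 itself. CG32767, Glut4EF, Octbeta1R, apolpp and mub had 5 each. All 5 were in 3' UTRs in CG32767, in the transcription factor gene Glut4EF, in the octopamine receptor gene Octbeta1R and in mub, which encodes a KH-domain RNA-binding protein, and their best pooled ranks were 8714, 8220, 11453 and 13716. In apolpp, which encodes the precursor of the major lipid carrier of the haemolymph, 4 were in coding exons and 1 in the 3' UTR, with a best rank of 19243. Only Glut4EF of the 5 had a region that overlapped the IDR list, at rank 8220.

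Lists of transcription factor, wiring and muscle genes held exonic regions at shares above the 5.04% of all genes, and per megabase of exon they were nearer to the value over all genes. Of 81 homeobox and POU genes 13 had one (16.0%), with otp, inv (signal 162, ranks 8141, 4741 and 3945 in replicates 1, 2 and 3) and hth (45.1) the strongest. Of 111 genes that guide axons or match synaptic partners 20 had one (18.0%), led by NetB, rst (105, ranks 8011, 9032 and 7452) and kek5 (62.2). BTB transcription factor genes stood at 5 of 18, with lola, fru and jim all below rank 15000, and ecdysone response genes at 5 of 31, led by the nuclear receptor genes Hr4 (137, ranks 4670, 6668 and 6905) and Hr3 (80.8) and by Eip93F (62.3). Muscle genes stood at 6 of 34, with Tm1, Mef2 (77.5) and how (59.9). Per megabase of exon the counts were 80.1 for homeobox and POU genes, 61.1 for BTB, 44.98 for ecdysone response, 41.8 for axon guidance and 36.5 for muscle, against 33.7 over all genes. No test was made of these lists.

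The other lists lay on both sides of the share over all genes. Fat body and larval serum protein genes stood at 3 of 14 (21.4%; apolpp, Lsp1gamma and the clotting gene fon), cytoplasmic ribosomal protein genes at 5 of 86 (5.81%; RpS23, RpS28b and RpS3 the strongest) and cuticle protein genes at 4 of 129 (3.10%). Per megabase of exon these were 150.2, 104.2 and 53.3, resting on 7, 5 and 4 regions. The region in RpS23 overlapped a stronger IDR peak, and it had a summit within 200 bp in replicate 3 only, at rank 7013. Among 180 olfactory, gustatory and ionotropic receptor genes, the class that holds the odorant receptors, Gr28a alone had a region, of signal 30.8. Salivary glue genes (22) and actin and tubulin genes (17) had none, and heat shock genes (Hsc70-3), histone genes (His3.3B) and chromatin genes (trx) had 1 each, of 31, 116 and 48.

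Chromosome arm 4, a small arm rich in heterochromatin, stood apart. Exonic regions made up 27 of its 264 regions (10.2%), against 2.38% to 3.25% on the other arms, and 76.1 per megabase of exon, against 30.5 to 36.4. The replicates' own lists gave 87.4, 129.6 and 126.8 per megabase in replicates 1, 2 and 3 on arm 4, against 37.0 to 57.9 on the others. Apart from Cals, whose rank was 344, the arm's exonic regions were weak, with Hcf next at rank 12512, and 1 of 27 (3.70%) overlapped the IDR list, against 28 of 237 (11.8%) of the arm's other regions, which is itself below the 31.6% to 33.6% of other regions on the other arms. The flanks of exonic summits were 34.2% GC on arm 4, against 41.4% on the other arms, and all regions of arm 4 had a median rank of 18806, against 14942. The part of either in the higher count was not tested.

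The X chromosome had the largest share of exonic regions that overlapped the IDR list. Of its 174 exonic regions 34 (19.5%) overlapped the IDR list, against 23 of 163 on 3L (14.1%), 15 of 142 on 2R (10.6%), 14 of 206 on 3R (6.80%) and 8 of 140 on 2L (5.71%). Of the other regions of these arms 31.6% to 33.6% overlapped it, with 33.5% on X. The 34 included 7 of the 18 in coding exons.

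Signals were low at the exonic summits nearest to the 500 bp limit on either side. The nearest exonic summits inside the rule, at 502, 516 and 517 bp from a TSS, had signals of 27.2, 25.3 and 25.7, and the nearest outside it, at 500, 498 and 496 bp, had 34.8, 40.8 and 30.1. Exonic summits numbered 42 over 500 and up to 600 bp from a TSS, and 47 over 400 and up to 500 bp. The nearest stronger region of any kind was at a median of 2202 bp from exonic summits, against 2009 bp from the other summits, and 11.2% of exonic summits had one within 500 bp, against 13.4% of the others. Exonic regions were mostly the weaker, so more regions counted as stronger for them, and these values are not like for like. To stronger regions that overlapped the IDR list the medians were 5900 bp from exonic summits and 4502 bp from the others. The start of a non-coding gene lay within 500 bp of 31 exonic summits (3.64%), against 3.85% of the others. Among the exonic regions that overlapped the IDR list, the counts were 3 of 18 in coding exons and 6 of 77 in 3' UTRs. The share among the other regions that overlapped it was not computed.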

How the data were processed

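The authors deposited, for the dm6 build, a list of 30000 regions for each of the 3 replicates, a list of the same length from their pooled alignments and a list of 8248 IDR peaks. The deposited lists give each region a signal value, used here for ranks within a list, and a −log10 q value, which was not used. All replicates share 1 control file per the deposited text files, and the control and the dm3 lists were not analysed here. For the aligner, the caller and the threshold of the IDR procedure, names and settings were not given in the sources used here. Read counts are not in these lists, so depth is unknown, and precision comes from the number of regions and the spread between the 3 replicates, which the labels call biological.

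Summits were set against Ensembl release 115 genes on NCBI's Release 6 sequence. A summit in a coding exon of any transcript was called coding, and otherwise 3' UTR. Replicates were compared by exact two-sided sign-flip permutation tests and shares given exact 95% binomial intervals. Genes were named by a fixed rule: the 14 strongest regions of each class that overlap the IDR list, the 4 strongest that do not, 1 of median signal, up to 3 genes of each of 14 lists and the genes with most regions. Members, lists and 12 motifs were chosen with earlier results of these data known. The calculations used Python 3.11.15, numpy 2.4.6, pandas 2.3.3, scipy 1.17.1 and matplotlib 3.10.9 and were tested on simulated data.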

Additional observations from a re-analysis of the deposited data

How the results depend on the processing

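The direction of the comparisons of replicates and their p held under every alternative run for coverage, class, rank and GC content, where the exact permutation p was 0.25 with 3 replicates and 0.5 with 2. The exception was GC against flanks 500 bp away, at -0.739 points and an exact permutation p of 0.5. Leaving out each replicate gave -18.6 to -17.7 points for coverage, -10.2 to -8.89 for class, -6.73 to -6.26 for rank and -2.30 to -0.846 for the GC of all exonic summits, whose value of -1.81 mixes a rise and a dip and depends on replicate 3, without which it was -0.846. Ranking the nearest summit in place of coverage, an alternative chosen after seeing the data, gave -18.4 points and 47 regions strong in all replicates, against 20.2% of all 30000. Within the stronger 15000 regions, 38.01% of 221 exonic regions overlapped the IDR list (40.5% in coding exons, 37.5% in 3' UTRs), against 59.1% of all. Counting only stronger regions of the IDR list moved the median distance to one to 5900 bp, against 4502 bp from the other summits. Counting only regions that overlap the IDR list left 8 of the 65 genes of the lists. Over both kinds of exon together, motifs more frequent at summits in all replicates numbered 3 of 12, 5 with 50 bp on each side and 2 with flanks 2 kb away. These counts and the signs below mix classes that can move in opposite directions. CAGCTG, for example, differed by 3.33 points in coding exons and -1.79 in 3' UTRs. The classes were not run apart under these settings. Signs turned for ATTAATGAG (0.0447 points with 50 bp), ATGCAAAT (-0.0964 with 50 bp, -0.0406 with flanks at 2 kb), CAGCTG (-0.0897 and -0.346) and CACACACA (0.311 at 2 kb), all from differences within 0.4 points of 0; the cause was not tested. The number of exonic regions was 698 with a limit of 1000 bp and 994 with 250 bp. No paired analysis was possible because the series has a single group, so that no samples of different groups share a number; the tests here compare regions within each replicate.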
